A study of Mus musculus with 12 samples.

Results

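The long noncoding RNA genes described here, measured in the hypothalamus of single mice, are Malat1, Neat1, Miat, Mir124a-1hg, Snhg11, Rmst, Gm20387 and Gm20045. They are 8 of the 32494 genes in the deposited expression table and were picked by symbol, with measured differences between the groups of these same mice already known. Their group differences are therefore given as descriptions, with no p-value, and counts of those past the threshold of the fit over all genes are printed without support being drawn from them. All 8 passed the filter on low values, a mean of at least 1 CPM (read counts scaled to a common library total) over the 12 libraries, which 15359 genes passed. Messenger RNA was sequenced from 12 male mice to ask what loss of Smc3, a core subunit of the cohesin ring that holds and loops DNA, does in adult neurons. All mice carried floxed Smc3 and were given tamoxifen, and tissue was collected 5 weeks later; an age of 8 weeks is stated without the step it refers to. The 7 WT mice lacked the Camk2a-cre/ERT2 transgene and the 5 cKO mice carried it. The sample titles of both groups also contain the word control, which was not used for grouping. Both groups therefore share the floxed alleles and the drug, and the WT mice are Cre-negative floxed mice and not unmodified ones. The Camk2a promoter drives the recombinase mainly in forebrain excitatory neurons, so only some cells of a hypothalamus are targeted.

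Long noncoding RNAs are transcripts without a long open reading frame, and several of them act in the nucleus, where they scaffold bodies of RNA and protein or bring proteins to chromatin. Malat1 accumulates in nuclear speckles, which hold splicing factors, and Neat1 builds the paraspeckles. Miat, also called Gomafu, forms its own nuclear domains in neurons, and other genes of this kind are precursors of small RNAs: Mir124a-1hg hosts the neuronal microRNA miR-124, Snhg11 hosts small nucleolar RNAs, and Rmst hosts miR-135a and miR-1251. Malat1 and Neat1 are made in most cell types, and bulk tissue shows neither the cell type nor the compartment of a transcript, so the name neuronal nuclear RNAs was not checked for them. The mature ends of Malat1 and of the long form of Neat1 carry no poly(A) tail. Messenger RNA isolation can therefore capture them incompletely, and their levels below are those of the captured RNA.

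Read depth was between 17.1 and 24.0 M reads (megareads) in 11 libraries and 68.7 M in WT 1. A level of 3 reads, used as a detection floor, was 0.0436 to 0.178 CPM, and both figures cover counting error only. Smc3 itself went against the labels: it was 81.6 ± 3.14 CPM (SD, n = 7) in libraries labelled WT and 131 ± 10.3 CPM (n = 5) in libraries labelled cKO. On the log2 scale it was higher by 0.67 with an SE of 0.05 (adjusted p from limma 3.06e-05). The deposited values are sums over the whole gene and do not resolve the floxed exons, so each direction below is that of libraries as labelled. All marker lists of neurons, glia, vessels, thalamus, cortex and hypothalamus were detected, with no marker at 0 in all libraries. The 16 hypothalamic markers summed to between 86.2 and 735 CPM in WT and between 192 and 794 CPM in cKO, a spread of several-fold within each group. All p-values measure the spread between these mice.

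Across the 8 RNAs, every log2 fold change of cKO against WT was below 0, with a median of -0.68, beside a median of 0.01 over all tested genes. Malat1, Miat, Mir124a-1hg, Snhg11, Gm20387 and Gm20045 were past the threshold of an adjusted p of 0.05, lower in cKO, and Neat1 and Rmst were not. Over all 15359 genes, 14.1% were past that threshold, 7.6% as lower and 6.54% as higher. This split leaned the other way under median centring of each library (1377 higher, 1054 lower) and under a correction for GC content and length (1318 higher, 862 lower). In the same 6 of 8 RNAs no cKO library reached the lowest WT library, while groups that do not overlap were seen for 6.73% of all tested genes, 3.2% lower and 3.52% higher in cKO. Because these RNAs were chosen with the contrast known, nothing is read from either count. In bulk tissue, fewer cells that make an RNA and less RNA per cell cannot be told apart.

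**Figure D1:**
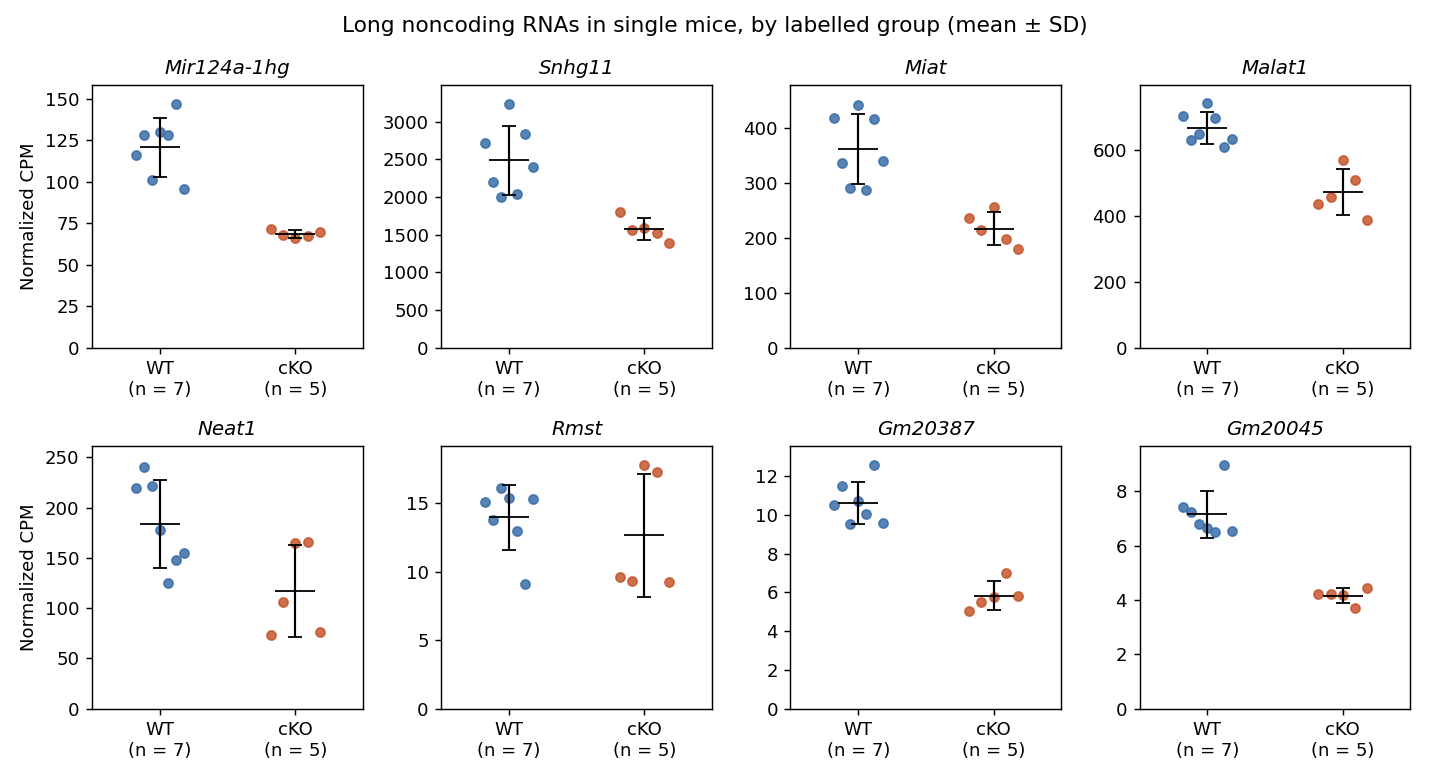
Normalized CPM (y axis, from 0) of each of the 8 long noncoding RNAs in single mice; points are libraries labelled WT (blue, n = 7) or cKO (orange, n = 5), and bars give the mean ± SD. The groups are apart in 6 panels and overlap for Neat1 and Rmst. For Neat1, Rmst and Malat1 the libraries cKO 12 and cKO 13 lie above the other 3 cKO libraries.

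The nuclear body RNAs come first. Malat1 lies at chr19:5795690-5802672 on the minus strand (GENCODE M21, GRCm38), a locus of 1 uninterrupted span annotated as a long intergenic noncoding RNA. Its level was 609 CPM in the lowest, 648 in the median and 741 in the highest WT library. The cKO libraries held 437 (cKO 8), 457 (cKO 9), 569 (cKO 12), 508 (cKO 13) and 387 CPM (cKO 14). All 5 cKO libraries were below all 7 WT libraries, and cKO 12, the highest of them, came closest to the WT range. Next highest was cKO 13, and these libraries were also the highest cKO libraries for Neat1 and Rmst. The log2 fold change was -0.51 ± 0.08 (SE), from a mean of 666 ± 48.3 to 472 ± 69.4 CPM, or a ratio of 0.709.

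Its promoter is printed because Malat1 is the most abundant nuclear body RNA of the set and its start region holds a repeated match. The 300 bases run from 250 before to 50 after the RefSeq start (GRCm38.p6, chr19:5802623-5802922, minus strand, printed 5′ to 3′ in the direction of transcription). Capitals mark TGACG, the core of the cyclic AMP response element, read on either strand.
Malat1 promoter: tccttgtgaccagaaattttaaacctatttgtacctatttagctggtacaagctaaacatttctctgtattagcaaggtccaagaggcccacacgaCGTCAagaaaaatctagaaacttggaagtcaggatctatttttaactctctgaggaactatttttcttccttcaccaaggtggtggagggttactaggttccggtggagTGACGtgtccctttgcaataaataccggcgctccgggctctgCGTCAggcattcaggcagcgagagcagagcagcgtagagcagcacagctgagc
The window holds 3 such matches. At least 1 is present in 20.9% and at least 3 in 1.04% of the 32544 RefSeq promoters of the same length. TGACG was picked for this repeat among several motifs searched in the windows of 5 of these RNAs. It had 0 matches in those of Snhg11, Miat, Gm20387 and Gm20045. A match of letters is a description and not a binding site.

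Neat1 lies next to Malat1 on the same strand, at chr19:5824708-5845478, and is transcribed as a short and a long form that the gene-level values do not separate. WT libraries ran from 125 through a median of 178 to 241 CPM. The cKO values were 72.9 (cKO 8), 106 (cKO 9), 165 (cKO 12), 166 (cKO 13) and 76.7 CPM (cKO 14). The libraries cKO 8, cKO 9 and cKO 14 were below every WT library, while cKO 12 and cKO 13 fell inside the WT range. The log2 fold change was -0.70 ± 0.23, close to that of Miat but with a larger SE. The mean was 184 ± 43.8 CPM in WT and 117 ± 45.8 CPM in cKO. Neat1 was past the threshold in 6 of 25 alternative settings, and its values over the 25 ran from -0.97 to -0.54. The 6 were omission of WT 7, cKO 12 or cKO 13, library weights, and the oligodendrocyte or thalamus and habenula marker score as a covariate.

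Oligodendrocyte markers moved with Neat1 from mouse to mouse. The score of 7 of 7 markers, the mean log2(CPM + 1) of genes such as Mbp and Mog, was 8.77 in cKO 12 and 8.87 in cKO 13, against 8.04, 8.35 and 8.10 in cKO 8, cKO 9 and cKO 14. The summed marker level ranged over 4121 to 9887 CPM in WT and 4840 to 9984 CPM in cKO. Between groups this score differed by 0.10 (exact permutation p = 0.676), and with the score as a covariate, an alternative chosen after the data were seen, the Neat1 fold change was -0.79 ± 0.13. Within the 7 WT mice the correlation of the score with Neat1 was r = 0.74 (exact p = 0.0702, adjusted 0.433 over 100 pairs) and rho = 0.61 (exact p = 0.167). It was 0.38 without the 2 libraries farthest from the median score, so it rests on those libraries. Within WT, Neat1 also rose with the astrocyte score (r = 0.54, rho = 0.64). It ran against the scores of hypothalamus (r = -0.61) and of ependyma and choroid plexus (r = -0.63). None of these passed after adjustment, and the link was not particular to oligodendrocytes. The part of oligodendrocytes in the Neat1 values was not tested beyond the covariate fit.

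**Figure D2:**
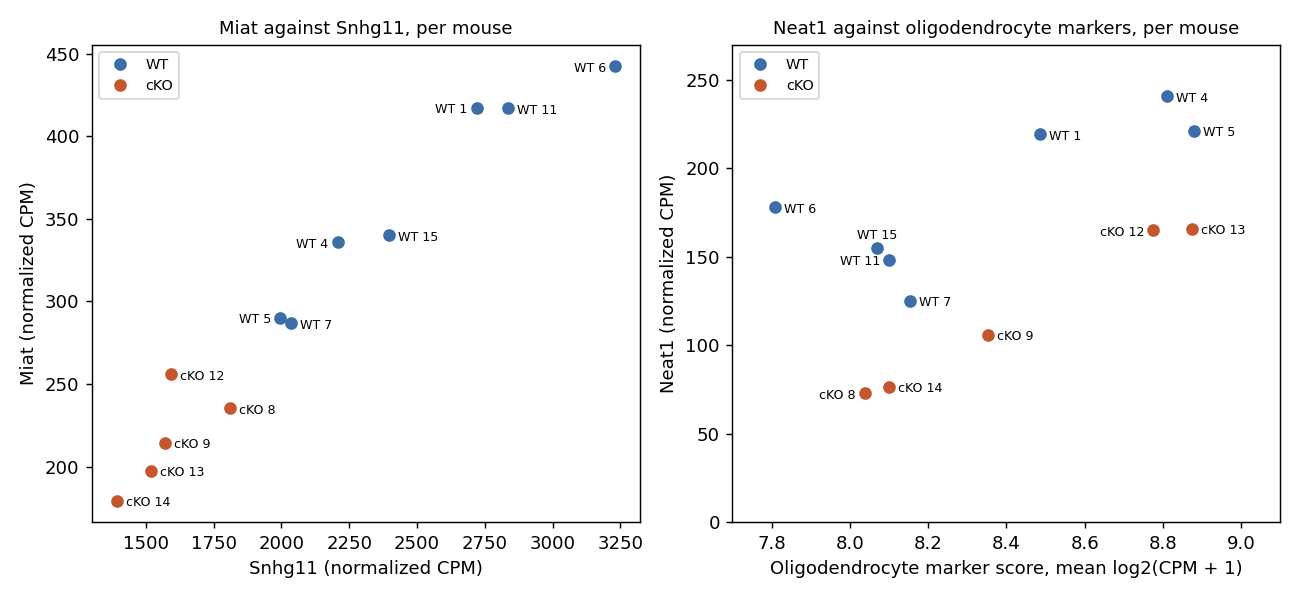
Left, Miat against Snhg11, both in normalized CPM; right, Neat1 in normalized CPM against the oligodendrocyte marker score, the mean log2(CPM + 1) of 7 genes; each point is 1 mouse, blue for WT and orange for cKO. Miat tracks Snhg11 from WT 5 and WT 7 up to WT 6, and Neat1 at a like marker score is lower in cKO, with cKO 12 and cKO 13 at the high end of both axes among the 5 cKO mice.

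Miat, at chr5:112213228-112229395 on the minus strand, binds splicing proteins such as Qk, Sf1 and Celf3. It was 287 CPM in the lowest, 340 in the median and 442 in the highest WT library. In the cKO libraries it was 235 (cKO 8), 214 (cKO 9), 256 (cKO 12), 198 (cKO 13) and 179 CPM (cKO 14). The groups did not overlap, and the highest cKO library again was cKO 12. The log2 fold change was -0.73 ± 0.12, a ratio of 0.599 between the means of 216 ± 30.1 and 361 ± 63.9 CPM.

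Hosts of small RNAs follow. Mir124a-1hg, at chr14:64587331-64593961 on the plus strand, is a precursor of miR-124, the most abundant microRNA of neurons, which represses non-neuronal transcripts. The WT libraries held 95.9 to 147 CPM with a median of 128. The cKO libraries held 71.9 (cKO 8), 67.9 (cKO 9), 66.0 (cKO 12), 67.3 (cKO 13) and 69.5 CPM (cKO 14), a narrow band below every WT library. Its log2 fold change of -0.80 ± 0.09 was the lowest of the set on the log2(CPM + 1) scale, from 121 ± 17.8 to 68.5 ± 2.27 CPM. By the ratio of means Gm20387 was lower, at 0.548 against 0.567. The annotated exons of the gene contain the hairpin of miR-124, but the mature microRNA is too short for this library type and was not measured. A second host of the same microRNA, Mir124-2hg, was 10.5 ± 1.26 CPM in WT and 9.15 ± 0.718 CPM in cKO (log2 fold change -0.18, limma adjusted p = 0.149).

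Snhg11, at chr2:158375638-158386145 on the plus strand, is a neuron-rich host of small nucleolar RNAs. RefSeq types it as a long noncoding RNA and GENCODE M21 as protein coding. Its level in WT was 1996 to 3231 CPM with a median of 2398. The cKO values were 1809 (cKO 8), 1571 (cKO 9), 1594 (cKO 12), 1518 (cKO 13) and 1394 CPM (cKO 14), all below the lowest WT library. The means of 2489 ± 458 and 1577 ± 151 CPM gave a log2 fold change of -0.64 ± 0.12. Gm25129, a small nucleolar RNA annotated in an intron of Snhg11 and listed as its own row, was 2.14 ± 0.288 CPM in WT and 1.58 ± 0.576 CPM in cKO (log2 fold change -0.31 ± 0.13, limma adjusted p = 0.119), with overlapping groups.

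Snhg11 and Miat varied together among mice of 1 group. In the 7 WT mice their correlation on log2(CPM + 1) was r = 0.97 (exact permutation p = 7.94e-04, adjusted p = 0.0794 over 100 pairs) and Spearman's rho = 0.93 (exact p = 0.00675, adjusted 0.337). It was 0.98 without the 2 libraries farthest from the median of Snhg11 and 0.98 without WT 1. None of the 100 correlations in WT passed an adjusted p of 0.05, and 9 had an unadjusted exact p under 0.05 by Pearson and 8 by Spearman. With each library centred on its median, this pair alone passed (r = 0.97, exact p = 3.97e-04, adjusted 0.0397). WT 6, WT 11 and WT 1 were highest for both RNAs, and WT 5 and WT 7 were lowest for both. Marker scores of endothelium and neurons ran against both RNAs in the WT mice. For endothelium r was -0.85 with Snhg11 (exact permutation p = 0.0214) and -0.78 with Miat (0.0532). For neurons it was -0.81 with Snhg11 (0.0357) and -0.72 with Miat (0.0764). The cortex and striatum score rose with both RNAs. Its rho was 0.89 with Snhg11 (exact permutation p = 0.0123) and 0.82 with Miat (0.0341), and its r was 0.62 (0.159) and 0.73 (0.0710). None of these passed after adjustment, and their part in the shared variation was not tested. Miat amounted to 14.5 ± 0.603% of the Snhg11 CPM in WT, within 13.7 to 15.3%, and to 13.7 ± 1.34% in cKO, within 12.9 to 16.0%. The groups overlapped in this ratio, while they did not in either level.

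The start regions of Snhg11 and Miat are shown because these RNAs tracked each other. Both are from RefSeq (GRCm38.p6), in the direction of transcription, with the longest run of bases that they share in capitals. For Snhg11 the 175 bases upstream of the first GENCODE exon are given (chr2:158375463-158375637, plus strand), and for Miat the full window (chr5:112228899-112229198, minus strand). The Miat window was not cut in this way and lies wholly within the span of the GENCODE gene, which starts further upstream.
Snhg11 promoter: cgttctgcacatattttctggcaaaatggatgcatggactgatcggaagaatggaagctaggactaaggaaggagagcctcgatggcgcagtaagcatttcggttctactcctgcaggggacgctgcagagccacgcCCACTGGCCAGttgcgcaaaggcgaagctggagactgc
Miat promoter: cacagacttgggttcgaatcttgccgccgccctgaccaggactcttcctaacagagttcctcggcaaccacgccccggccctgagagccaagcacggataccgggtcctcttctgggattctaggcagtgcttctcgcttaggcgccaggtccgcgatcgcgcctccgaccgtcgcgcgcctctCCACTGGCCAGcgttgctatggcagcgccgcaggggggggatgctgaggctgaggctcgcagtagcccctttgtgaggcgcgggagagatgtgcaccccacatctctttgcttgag
The shared run CCACTGGCCAG is 11 bases long. It occurs, on either strand, in 15 of the 32544 promoters (0.0461%), these 2 included. The run was picked as the longest that this pair shares, so this share is a description, and a shared element was not tested. The table holds promoters for 5 of the 8 RNAs (Snhg11, Miat, Malat1, Gm20387 and Gm20045), and the longest runs shared by the other 9 pairs of them were 7 to 10 bases. The full windows of 300 bases were also searched for known motifs on both strands. The TATA box letters TATAAA, found in 13.6% of all promoters, were in none of the 5 windows. The letters CCAAT, found in 37.4%, were in none of them either. Also absent were AGGGGGCGC, a core of the CTCF motif (1.25% of all promoters), and TTCAGCACC, part of the REST motif (0.372%). The GC box GGGCGG, found in 35.9% of all promoters, occurred 1 time in Miat and 1 time in Gm20387.

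Rmst, at chr10:92071037-92165170 on the minus strand, is a long locus whose RNA binds the neural factor SOX2 and promotes neurogenesis. It was 9.13 CPM in the lowest, 15.1 in the median and 16.1 in the highest WT library. The cKO libraries held 9.65 (cKO 8), 9.31 (cKO 9), 17.8 (cKO 12), 17.3 (cKO 13) and 9.23 CPM (cKO 14). The cKO mice fell into a pair above every WT library and 3 libraries near the lowest WT mouse, WT 11. The means of 13.98 ± 2.39 and 12.7 ± 4.47 CPM differed by a log2 fold change of -0.17 ± 0.18, within the spread between mice. It moved from -0.08 without cKO 14 (-0.09 without cKO 9 and -0.10 without cKO 8) to -0.26 without WT 11, -0.29 without cKO 13 and -0.30 without cKO 12.

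Markers of the neighbouring thalamus and habenula ran against Rmst in part. Their score was highest, 6.18, in WT 11, the WT library with least Rmst. Among cKO mice it was 4.61 in cKO 12 and 5.27 in cKO 13, the libraries with most Rmst, against 5.17 in cKO 8, 5.36 in cKO 9 and 5.51 in cKO 14, so it did not separate cKO 13 from the rest. The oligodendrocyte score given above did separate both, at 8.77 and 8.87 against 8.04 to 8.35. Within WT, however, it hardly followed Rmst (r = 0.26, exact permutation p = 0.645, rho = 0.07). Scores of hypothalamus, astrocytes, endothelium, ependyma and choroid plexus, and cortex and striatum also set cKO 12 and cKO 13 apart. The hypothalamus score, for example, was 2.656 and 2.995 against 4.104 to 4.564, so the separation was not specific to oligodendrocytes. Within WT the correlation of the thalamus and habenula score with Rmst was r = -0.86 (exact permutation p = 0.00694, adjusted 0.347 over 100 pairs) and rho = -0.75 (exact p = 0.0663), and r was -0.83 without the 2 farthest libraries. With that score as a covariate the Rmst fold change was -0.52 ± 0.16, not past the threshold, and with the oligodendrocyte score it was -0.23 ± 0.15. The part of tissue composition in the Rmst values was not tested beyond this.

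The microRNAs of the Rmst locus are printed because their host separated cKO 12 and cKO 13 from the other cKO mice. The mature sequences are from RefSeq (GRCm38.p6), 5′ to 3′, on the minus strand, with the seed, bases 2 to 8, in capitals. They lie at chr10:92072141-92072163 and chr10:92137190-92137210.
mmu-miR-135a-5p: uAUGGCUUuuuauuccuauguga
mmu-miR-1251-5p: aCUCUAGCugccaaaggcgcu
The seeds differ. The precursor rows of these microRNAs were near the floor, at 0.178 to 0.700 CPM for Mir135a-2 and 0 to 0.140 CPM for Mir1251. They were under the minimum mean of 1 CPM, so no difference was tested.

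The remaining pair carry only locus names, and no role is given for them here. Gm20387, at chr6:110639753-110645916 on the minus strand, is annotated antisense to Grm7, a metabotropic glutamate receptor gene. Its level in WT was 9.53 to 12.6 CPM, with a median of 10.5. The cKO values were 5.04 (cKO 8), 5.49 (cKO 9), 5.78 (cKO 12), 7.03 (cKO 13) and 5.80 CPM (cKO 14), all below the WT range, from 98 to 724 recovered reads per library over both groups. The log2 fold change was -0.77 ± 0.08, from 10.6 ± 1.09 to 5.83 ± 0.739 CPM. Exons of Gm20387 and Grm7 overlap, and the library kit named in the labels does not mark strand, so reads of the shared bases cannot be told apart. In GENCODE M21 these are 130 of the 1783 exon bases of Gm20387 (7.29%), and the authors' annotation may differ. Grm7 fell from 87.2 ± 6.13 (80.9 to 98.9) to 72.9 ± 3.87 CPM (67.9 to 77.5), a log2 fold change of -0.25 ± 0.05 (limma adjusted p = 0.00936), with no overlap between groups. The part of Grm7 reads in the Gm20387 values was not tested. Exons of Miat, Malat1 and Rmst also overlap those of a gene on the other strand (Gm26953, Gm37376 and Gm26700), none with its own row. The part of such reads was not tested either.

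Gm20045 lies at chr1:171320601-171326177 on the minus strand, an intergenic noncoding locus of 5.577 kb of exon. It ran from 6.49 through a median of 6.79 to 8.96 CPM in WT. The cKO libraries held 4.24 (cKO 8), 4.22 (cKO 9), 4.20 (cKO 12), 3.70 (cKO 13) and 4.44 CPM (cKO 14), which is below every WT library and within a narrow band. The log2 fold change was -0.66 ± 0.08, from 7.16 ± 0.871 to 4.16 ± 0.272 CPM. The log2(CPM + 1) scale understates differences at this level. On recovered reads the fold change was -0.79 with edgeR and -0.80 with DESeq2.

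**Figure D3:**
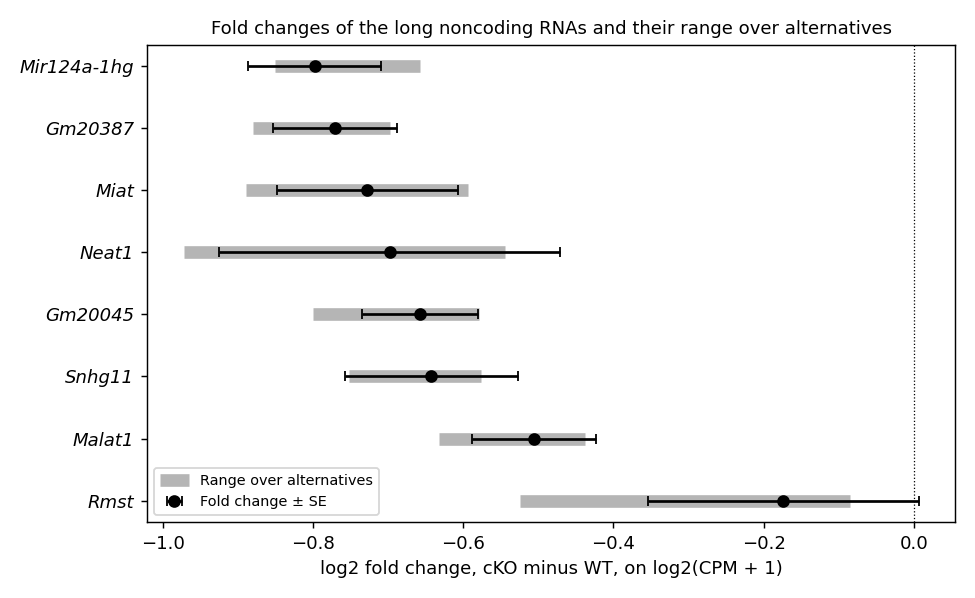
Log2 fold change of cKO against WT on log2(CPM + 1) (x axis) for each RNA, as a point with its SE; the grey bar spans the values over 25 alternative settings. All points and grey bars are below 0, from -0.80 for Mir124a-1hg to -0.17 for Rmst, and Neat1 has the widest error.

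The authors' deposited table of their own comparison lists log2 fold changes of -0.82 for Mir124a-1hg, -0.66 for Snhg11, -0.74 for Miat and -0.50 for Malat1. For Neat1, Rmst, Gm20387 and Gm20045 the authors' deposited table gives -0.65, -0.14, -0.87 and -0.79. A false discovery rate under 0.05 was given in the authors' deposited table for 6 of the 8 and for 1604 of all 32494 genes (4.94%). They are the 6 whose groups do not overlap.

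Levels were ranked between genes per kb of merged exon (GENCODE M21), a length scale that depends on that annotation. In WT, Snhg11 stood highest at 292 ± 53.8 CPM per kb, rank 56 of 14515 genes with a length. It was followed by Malat1 at 95.3 ± 6.92, Miat at 38.9 ± 6.88 and Mir124a-1hg at 25.2 ± 3.71 CPM per kb. None of these 4 overlapped its neighbour in the order in WT, though Miat and Mir124a-1hg came within 1 CPM per kb (lowest Miat 30.8, highest Mir124a-1hg 30.6). Neat1 (8.86 ± 2.11) and Gm20387 (5.96 ± 0.613 CPM per kb) overlapped each other, as did Rmst (1.88 ± 0.322) and Gm20045 (1.28 ± 0.156 CPM per kb). The order of the means was the same in cKO.

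The RNAs also differed in how much they varied within a group. The within-group SD of log2(CPM + 1) was 0.451 for Neat1 and 0.353 for Rmst, above 99.4% and 95% of genes of similar level. It was 0.236 for Miat and 0.220 for Snhg11, above 95.5% and 94.7% of such genes. For Mir124a-1hg it was 0.170 (91.4%) and for Malat1 0.156 (86.1%). Gm20387 and Gm20045 varied least, at 0.140 (42.9%) and 0.123 (21.8%). Neat1 as a percent of Malat1 CPM, its neighbour on the chromosome, was 27.8 ± 7.02% in WT and 24.3 ± 6.56% in cKO, with overlapping ranges.

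By the fixed rule of likeness, the Pearson correlation over 12 libraries after removal of each group's mean, the gene most like Neat1 was Ppfibp2 (r = 0.96). For Snhg11 it was Gdpd2 (0.96), for Rmst Arl2 (0.95), for Miat Mcoln1 (0.95), for Malat1 Map2k5 (0.94) and for Gm20045 Prkdc (0.93). Mir124a-1hg was most like Reep2 (0.92), and Gm20387 most like Cmc4 (0.89). Next in likeness stood Cpsf7 and Csf2ra for Snhg11, Slc25a27 and Leng8 for Miat, Slc26a8 and Pgs1 for Malat1, and 4632428C04Rik and Phkb for Neat1. For Rmst they were Fads2b and Camk2g, for Mir124a-1hg A630034I12Rik and Cstf1, for Gm20387 Erdr1_1 and Zfp646, and for Gm20045 Sgip1 and Gm52603. These correlations come from the same libraries and are the highest of 15359 genes, so they are descriptions.

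Other long noncoding RNAs with known roles were taken from a list of 41, of which 37 were tested. Of these, 6 fell and 2 rose, with a median log2 fold change of -0.04, beside 7.6% lower and 6.54% higher over all tested genes. Meg3, the imprinted RNA of the Dlk1 domain, fell from 3925 ± 550 to 2690 ± 342 CPM (log2 fold change -0.54 ± 0.11, limma adjusted p = 0.00816). Firre, an X-linked RNA that helps organise chromatin, fell from 82.2 ± 16.4 to 53.1 ± 3.02 CPM (-0.60 ± 0.12, limma adjusted p = 0.00771). Neither RNA had overlapping groups. Snhg14, the host transcript of the Prader-Willi domain, fell by 0.39 on the log2 scale, Jpx, an activator of Xist, by 0.46 and the miR-9 host Mir9-3hg by 0.30, with overlapping groups. Pantr1, an RNA next to Pou3f3, rose by 0.36 with no overlap (limma adjusted p = 0.0134). Also past the threshold were Chaserr (-0.21) and Norad (0.14), which are outside the rule of 6 per list and were named after their values were seen. Meg3, Firre and Snhg14 held their calls in 25 of 25 alternatives. Those of Jpx, Mir9-3hg and Pantr1 were lost with the thalamus and habenula score as a covariate, and that of Mir9-3hg also without cKO 14. Rian, which shares the domain of Meg3, was 542 ± 47.2 CPM in WT and 592 ± 42.0 CPM in cKO (limma adjusted p = 0.184). Peg13, C230004F18Rik and 1700020I14Rik were not analysed here, and Mir17hg was under the minimum.

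Set against all GENCODE long noncoding RNA genes, a comparison added after the values were seen, the fold changes of 7 of the 8 lay at the low end, and that of Rmst did not. The 8 were chosen with this contrast known, so nothing is read from their place. Snhg11, typed as protein coding in GENCODE M21, was ranked beside the class though not part of it there. Of 690 other tested genes of this class, 91 were lower (13.2%) and 19 higher (2.75%), with a median log2 fold change of -0.09. Of 13699 protein-coding genes, 916 were lower and 952 higher, with a median of 0.02. On log2(CPM + 1), which understates differences at low levels, none of the 690 had a lower fold change than Mir124a-1hg, Gm20387 or Miat. On that scale 2 were lower than Neat1, 3 than Gm20045, 4 than Snhg11, 24 than Malat1 and 241 than Rmst. With edgeR the class median was -0.11, and the 8 RNAs were not ranked within the class on recovered reads. The class split was 33 higher and 54 lower under quantile normalization, with a median of -0.02 beside 0.03 for protein-coding genes. With the thalamus and habenula score as a covariate it was 6 higher and 49 lower (median -0.10), and 14 higher and 120 lower after a correction for GC content and length. The protein-coding split was 962 higher and 846 lower under quantile normalization, 1303 higher and 724 lower after the GC and length correction, and 1317 higher and 816 lower under median centring. It leaned lower with edgeR (841 higher, 953 lower), with the thalamus and habenula covariate (320 higher, 458 lower) and without WT 1 (471 higher, 531 lower). Omissions of other mice went both ways. Without WT 1 the split of the noncoding class was 8 higher and 49 lower. Log2 fold changes of all genes correlated with GC content (rho = -0.216 across 14515 genes, which are not independent replicates).

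**Figure D4:**
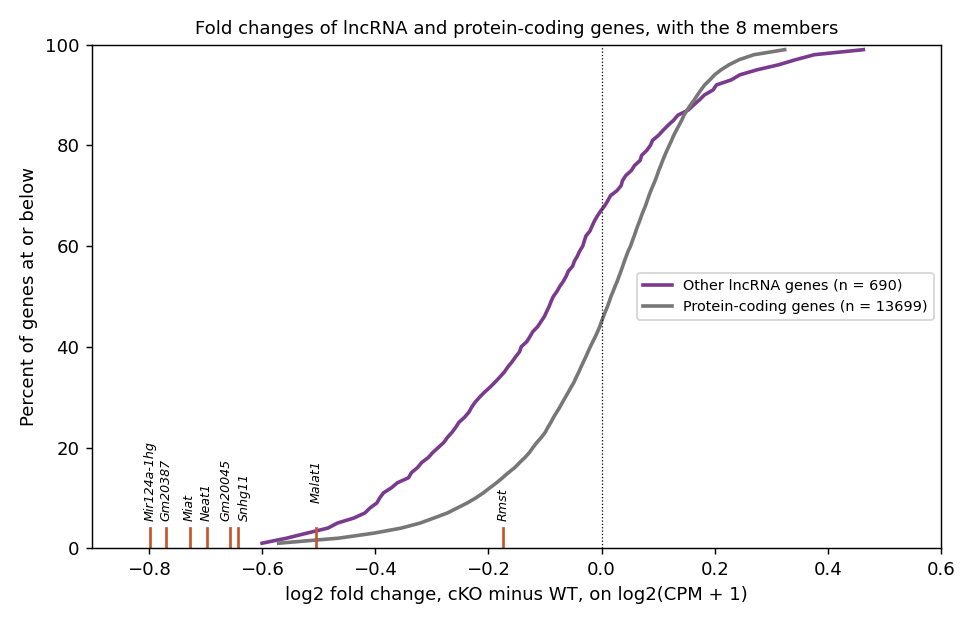
Cumulative percent of genes (y axis) at or below each log2 fold change of cKO against WT (x axis), for 690 other long noncoding RNA genes (purple) and 13699 protein-coding genes (grey); only the 1st to 99th percentiles are drawn, and ticks mark the 8 RNAs. The purple line lies to the left of the grey one below its upper end, and 7 of the 8 ticks are at -0.51 or less. The 8 RNAs were chosen with this contrast known.

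Proteins that work with these RNAs were counted against the 7.6% lower and 6.54% higher over all tested genes. Of 15 paraspeckle proteins, 3 fell (20%) and 0 rose, with a median log2 fold change of -0.03 beside 0.01 over all tested genes. Cpsf6 (-0.18, limma adjusted p = 0.0306) and Ewsr1 (-0.15, 0.0240) fell with overlapping groups. Both calls were lost without WT 1 or cKO 9, and with the thalamus and habenula score as a covariate. The core proteins Nono (log2 fold change 0.04, limma adjusted p = 0.476) and Sfpq (-0.15, 0.0906) were not past the threshold.

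Of 20 proteins of nuclear speckles and splicing, 3 fell (15%, beside 7.6% over all tested genes) and 0 rose (6.54% over all), with a median of -0.03. Srrm2, a scaffold of speckles, was 721 ± 92.1 CPM in WT (582 to 843) and 489 ± 69.2 CPM in cKO (378 to 557). The groups were apart, and the fall of 0.56 ± 0.10 on the log2 scale (limma adjusted p = 0.00640) held in 25 of 25 alternative settings. Son, the other scaffold, was 355 ± 10.7 in WT and 344 ± 7.71 CPM in cKO (limma adjusted p = 0.357). Srrm1 (-0.25) and Pnn (-0.17) also fell, with overlapping groups, and lost the call without any of WT 1, WT 11, WT 6, cKO 14 and cKO 9. The Miat-binding proteins Qk (0.05, limma adjusted p = 0.778) and Celf3 (-0.37, 0.0795) were not past the threshold.

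Of 19 targets of miR-124, 1 rose and 2 fell, with a median of -0.0029. These shares, 5.26% higher and 10.5% lower, are near the 6.54% and 7.6% over all tested genes, and under the GC and length correction the split was 2 higher and 0 lower. Usp14, a proteasome-bound deubiquitinase, rose by 0.18 ± 0.05 (limma adjusted p = 0.0270). Ctdsp2, a small phosphatase of the REST pathway, fell by 0.11 (0.0352) and the Notch ligand Jag1 by 0.34 (0.0467). Each of these 3 calls was lost without WT 1 or without cKO 14, and those of Ctdsp2 and Jag1 held in only 12 and 11 of 25 alternatives. Ptbp1, the splicing repressor that miR-124 silences in neurons, was 32.3 ± 2.17 CPM in WT and 30.9 ± 1.66 CPM in cKO (limma adjusted p = 0.475). Among 8 genes of microRNA processing only Dicer1 fell, from 101 ± 4.13 to 88.5 ± 6.28 CPM (-0.19 ± 0.05, limma adjusted p = 0.0193), with no overlap, and 0 rose. This call was lost under the GC and length correction and with the thalamus and habenula covariate.

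Genes beside the 8 loci were taken as the next group. Of 28 tested neighbours, up to 2 on each side in the RefSeq gene order, 1 rose and 1 fell, beside 14.1% past the threshold over all tested genes. The median log2 fold change of the 28 was 0.04. Grm7 and Gm25129, which overlap Gm20387 and Snhg11, were not among the 28, and their values, a fall past the threshold for Grm7, are given above. Arl8b, a lysosomal GTPase gene near Gm20387, rose from 187 ± 6.31 to 208 ± 7.51 CPM (0.15 ± 0.04, limma adjusted p = 0.0151), a call lost with the thalamus and habenula score as a covariate. Gm52129, near Mir124a-1hg, fell from 2.48 ± 0.415 to 1.58 ± 0.434 CPM (-0.44 ± 0.12, limma adjusted p = 0.0259), a call lost without WT 1, cKO 12, cKO 13 or cKO 14, without a filter, under quantile normalization and with that covariate. Frmd8 (0.05), next to Neat1, was not past the threshold, nor was Snhg17 next to Snhg11 (-0.34, limma adjusted p = 0.0546).

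Markers of cell types and regions were compared between the groups as scores over 9 lists, by exact permutation. None passed an adjusted p of 0.05. The neuron score was higher in cKO by 0.10 (exact p = 0.00884, adjusted 0.0795), with 3 of 10 markers past the threshold (Map2, Stmn2 and Elavl4, all higher) and a summed level of 6034 to 6737 CPM in WT and 6770 to 7328 CPM in cKO. Without WT 4 or without WT 7 this score passed, with a difference of 0.11 and an adjusted exact p of 0.0390 each. Under quantile normalization the difference was 0.054 (exact p = 0.0808, adjusted 0.242). None of the 10 neuron markers was past the threshold as lower.

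The thalamus and habenula score was lower in cKO by 0.46 (exact p = 0.0379, adjusted 0.121), with 4 of 12 markers lower (Prkcd, Rgs16, Plekhg1 and Ntng1) and a summed level of 717 to 1435 CPM in WT and 466 to 840 CPM in cKO. Microglial markers were higher by 0.10 (exact p = 0.0404, adjusted 0.121), with 0 of 7 past the threshold. With the thalamus and habenula score as a covariate, the fold changes were, as descriptions, -0.66 for Mir124a-1hg, -0.71 for Snhg11 and -0.63 for Malat1. In that fit 7 of the 8 RNAs were past the threshold, with Neat1 gained and Rmst still not past it. The other scores, for hypothalamus, cortex and striatum, astrocytes, oligodendrocytes, endothelium, and ependyma and choroid plexus, had exact p-values of 0.144 to 0.966.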

How the data were processed

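The authors deposited normalized CPM for 32494 genes in 12 libraries, and a table of their own comparison with log2 fold changes, log2 mean CPM, p-values and false discovery rates. Per the submitters' processing notes, bcl2fastq, FastQC 0.11.9, STAR 2.7.9a, SAMtools, Subread and featureCounts were used; genome build, annotation and strand setting are not given in the sources used here. Per the labels' protocols, messenger RNA was isolated and libraries were made with a NEBNext Ultra II RNA kit. Columns were matched to mice by name, with 0 left unused. The labels give no batch, and no pair of the 31 within-group pairs agreed within sampling noise (chi-square of 3.04 to 26.3 per degree of freedom), so each library counted as 1 sample.

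CPM are not counts, so the main test was limma 3.58.1 (R 4.3.3) with trend on log2(CPM + 1), over 15359 genes whose mean reached 1 CPM, without covariates, and Benjamini-Hochberg adjustment at 0.05. Whole reads were recovered from the CPM steps (100% of values within 0.01 of a whole number) for edgeR 4.0.16 and DESeq2 1.42.0 as alternatives. Scores and correlations were tested by exact permutation (SciPy 1.17.1), over 792 splits or 5040 pairings. The fit was tested on simulated data. Symbols were matched to GENCODE M21 (24207 of 32494, 94.5% of tested genes) for positions and lengths and to the RefSeq table (31260, 96.2%) for neighbours. Named were all 8 RNAs, Smc3, up to 6 genes per list past the threshold by smallest p-value, such neighbours, and the 3 genes most like each RNA; other names are values of listed genes given for context, and a few named genes are not reported here. The 8 RNAs and all lists were chosen with earlier results of these data known. Alternatives covered the pseudocount, scaling, filters, variance model, library weights, count tests, covariates, a GC and length correction, and omission of each mouse.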

Additional observations from a re-analysis of the deposited data

Results flagged for a closer look

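Single values stood far in 3 cases from the other samples of their group by Dixon's gap criterion, among 36 groups of values examined, of which chance would give about 1.8 (1 in 20). Gm20045 was 8.964 CPM in WT 11, the highest WT library. Without WT 11 the fold change of Gm20045 was -0.61, against -0.66 with it. The neuron marker score was 9.124 in cKO 13, the highest cKO library. The library WT 1 held 68.74 M reads (megareads) against at most 24.0 M in the other 11 libraries; without it 1158 genes were past the threshold in place of 2172.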

How the results depend on the processing

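All 8 RNAs kept a negative fold change in 25 of 25 alternatives, and 6 were past the threshold in each, which is a description since they were chosen on this contrast; only the fold change of Gm20045 moved by more than the mouse-to-mouse SD (-0.80 with DESeq2, -0.79 with edgeR). Rmst was past the threshold in 1 alternative, library weights. With weights from arrayWeights, calls rose to 5126 genes, 5 paraspeckle, 8 speckle, 6 miR-124 target, 3 microRNA processing, 13 other long noncoding RNA and 9 neighbouring genes. With the thalamus and habenula score as a covariate they were 913, and 0 paraspeckle, 0 miR-124 target, 4 long noncoding RNA and 1 neighbouring gene. With the oligodendrocyte score, added after the data were seen, 5 speckle, 2 microRNA processing and 6 neighbouring genes were called. DESeq2 called 5 speckle, 3 processing and 4 neighbouring genes. The GC and length correction called 5, 0 and 4. Quantile normalization called 2 processing and 1 neighbouring gene. Without a filter 1 speckle and 1 neighbouring gene were called, at 5 CPM 1 neighbouring gene, and without trend 1 miR-124 target. Median centring gave 1 correlation past the threshold. The causes were not tested. Omitting each mouse gave 1158 (without WT 1) to 2302 genes, 1 to 4 paraspeckle, 1 to 5 speckle, 0 to 3 target, 1 to 2 processing, 6 to 9 long noncoding RNA and 1 to 3 neighbouring genes, and a neuron score difference of 0.080 to 0.11. Of single named genes, 49 values without 1 mouse and 27 under other settings were no longer past the threshold, and 0 changed sign. No paired analysis was possible because the groups share no mouse number. Depth limits the rows with few reads, such as Gm20045 at 75 to 512 and Gm25129 at 20 to 172 reads per library, and the microRNA precursors.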
